A study of Mus musculus with 5 samples.

Results

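Hearts of male mice labelled Tet2+/- and given oridonin were compared with the heart of a wild-type (WT) mouse given vector, to ask what still differed from wild type after the treatment. The members were defined by their labels, with earlier results of these data known. They are 3 of the 5 libraries of the series, namely 2 oridonin libraries and 1 WT library. The remaining 2 libraries, from Tet2+/- mice given vector (Tet2 vector below), are given side by side and lend the fit part of its estimate of spread. All 5 samples carry the label of bone marrow transplantation, and the hearts were collected 12 months after it, with oridonin or vector given for 2 months. The titles carry the number 1 or 2 before the word month although the time label is 2 months throughout, and that number is used here as a replicate number only. The sources used here do not give strain, age at transplantation, conditioning or dose, nor whether the genotype is that of the donor marrow or of the host. The labels do not say that the replicates are separate animals, so every p-value measures only the spread between these samples, which may be technical.

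Tet2 encodes a dioxygenase that oxidises methylated cytosine, and its loss from 1 copy in blood stem cells is a common start of clonal haematopoiesis, the outgrowth of a mutant blood lineage. Mutant macrophages and monocytes that settle in the heart are known for inflammatory output, and age adds the senescence-associated secretory phenotype, a programme of secreted cytokines, proteases and growth factors. Oridonin is a plant diterpenoid whose reactive enone binds cysteines in proteins, and the series title names the histone H3 lysine 4 demethylase KDM5C as its target and that secretory programme as the outcome. A whole heart library reads mostly cardiomyocytes, the contracting muscle cells, with fibroblasts, vessel cells and a minority of immune cells. In such bulk RNA fewer cells of a type and less RNA per cell cannot be told apart.

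The libraries held 14574823 to 15535778 counts, so that 3 counts, the limit that a count of 0 allows, correspond to 0.193 to 0.206 CPM (counts scaled to the library total) and cover counting error only. Cardiomyocyte markers summed to between 43535 and 55312 CPM in the 5 libraries, which fits the labelled tissue, and 0 of 8 markers of T, B and NK cells passed the filter on low values, with at most 11 counts for any of them in a library. The share of counts from mitochondrially encoded genes was 23.6% in the WT library, 30.2% and 28.2% in the oridonin libraries and 26.8% and 29.7% in the Tet2 vector libraries. One library stood apart: the summed atrial markers were at 1186 CPM in Tet2 vector replicate 1, against 111 CPM in WT, 132 CPM in Tet2 vector replicate 2 and 72.0 and 65.8 CPM in the oridonin libraries. It enters the comparison of oridonin with WT through the estimate of spread and through the filter, which reads all 5 columns. It is also 1 of the 2 libraries behind every vector value given side by side. Without that library 1 gene passed the adjusted threshold and 1415 had an unadjusted p under 0.05, but leaving out Tet2 vector replicate 2 in its place gave a like number (0 and 1391), as did leaving out both (1 and 1407).

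No gene of the 12734 tested passed an adjusted p of 0.05 between oridonin-treated Tet2 and WT hearts (0 genes, 0.0%, limma with Benjamini-Hochberg adjustment), and voom, the other method run, also called 0. The smallest adjusted p was 0.126, for the tubulin gene Tuba4a. An unadjusted p under 0.05 was reached by 791 genes (6.21%), where that level alone would give 636.7. Of these 342 (2.69%) were higher and 449 (3.53%) lower than WT. At least a 2-fold distance from WT in both oridonin libraries was seen in 410 genes (3.22%), with 268 (2.1%) higher and 142 (1.12%) lower. Both oridonin libraries stood on the same side of WT for 9373 genes (73.6%), above it for 4066 (31.9%) and below it for 5307 (41.7%). The median log2 difference over all genes was -0.06, and the typical size of a gene's difference from WT (median 0.27 log2) was close to the typical distance between the 2 oridonin libraries (median 0.23 log2).

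The split between higher and lower genes depends on the scaling. With each library centred on its median, 444 genes were higher and 371 lower at unadjusted p under 0.05, and with the mitochondrial genes left out of the library total 584 were higher and 292 lower. That last scaling moves the median of all genes from -0.06 to 0.05. By the 2-fold rule the same scalings gave 310 higher and 123 lower, and 422 higher and 127 lower. The excess of higher genes by that rule depends on the filter and on 1 library: it was 964 higher and 942 lower with no filter, 92 and 80 at log2 CPM of at least 2, and 411 and 545 without oridonin replicate 2, where 1 library had to pass. Since no gene passed the adjusted threshold, what follows gives levels, differences and unadjusted p-values, and "higher" and "lower" are statements on these 3 libraries. The share of all genes with a given order of WT, vector and oridonin was not counted. No such order is therefore read as particular to the genes named.

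**Figure D1:**
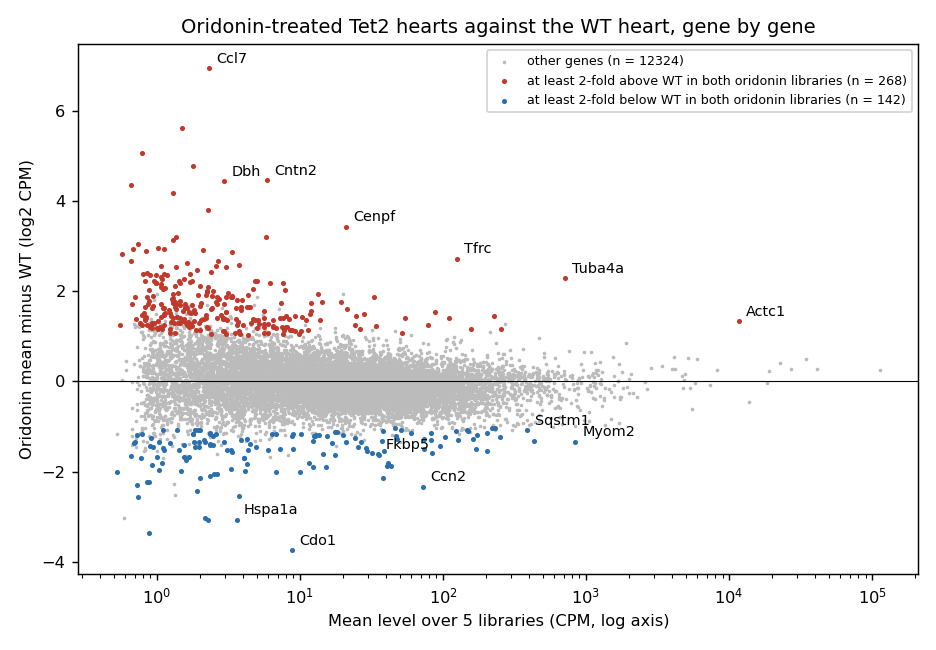
Each point is 1 of 12734 genes, placed by its mean level over the 5 libraries (CPM, log axis) and by the oridonin mean minus WT (log2 CPM). The 268 genes at least 2-fold above WT in both oridonin libraries (red) sit mostly at low levels, while Tuba4a, Tfrc and Actc1 are among those at high levels, and the 142 at least 2-fold below (blue) include Cdo1, Ccn2 and Myom2.

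Tet2 (chromosome 3, 133463679 to 133545139, minus strand, GRCm38) was at 15.6 CPM in WT, 9.43 and 17.9 CPM in the oridonin libraries and 19.2 and 7.76 CPM in Tet2 vector. The 2 oridonin libraries lie on either side of WT, the log2 difference was -0.26 with a standard error (SE) of 0.62 (limma, adjusted p = 0.951), and its sign turned to 0.20 without oridonin replicate 1. Kdm5c (chromosome X, 152233020 to 152274535, plus strand) was at 46.4 CPM in WT and lower in each Tet2 library, at 27.5 and 31.6 CPM with oridonin and 37.7 and 22.1 CPM with vector. Its log2 difference from WT was -0.65 (SE 0.36, limma adjusted p = 0.822). These RNA levels do not measure the demethylase's activity, and in a heart library the Tet2 level does not check the genotype of blood cells.

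Enzymes that write or erase methyl groups on lysine 4 of histone H3 were mostly below WT. Of 25 such genes 20 were lower, both oridonin libraries were below WT for 18, and the median log2 difference was -0.31, with -0.26 in Tet2 vector against the same WT library. Setd1b, a subunit of a complex that trimethylates this lysine, was at 28.8 CPM in WT and 16.7 and 18.1 CPM with oridonin, and Setd7, a monomethyltransferase, at 79.6 CPM in WT and 43.3 and 66.6 CPM with oridonin. Only Prdm9, the methyltransferase that marks recombination sites in germ cells, had an unadjusted p under 0.05 (0.024), and it rested on 7 counts in WT and 22 and 29 with oridonin. With 5 of 25 members higher against 5575 of all 12734 genes, the lower side held most of this list, but 0 members passed 2-fold below WT in both libraries.

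Tubulins, the subunits of microtubules, held the gene with the smallest p and 3 of the 12 first on the higher side. Tuba4a (chromosome 1, 75214228 to 75219865, minus strand), an alpha tubulin, was at 184 CPM in WT, 894 and 906 CPM with oridonin and 767 and 816 CPM in Tet2 vector. All 4 Tet2 libraries stood far above the WT library, with oridonin 4.89-fold above it (log2 difference 2.29, SE 0.17, limma adjusted p = 0.126). Tuba1b, the alpha tubulin that most cells make, was at 43.3 CPM in WT, 118 and 114 CPM with oridonin and 148 and 133 CPM with vector. Tubb4b, a widely expressed beta tubulin, was at 126 CPM in WT, 276 and 286 CPM with oridonin and 281 and 309 CPM with vector, and Tubb5, another one, was at 65.2 CPM in WT and 127 and 130 CPM with oridonin. Of 13 tubulin genes 9 were higher than WT, 7 with an unadjusted p under 0.05 and 4 at least 2-fold in both libraries, against 2.69% and 2.1% of all genes. Among the 13 tested, 1 was under 1 CPM in WT and so passed the filter only through Tet2 libraries. The median log2 difference was 0.71, and 1.09 in Tet2 vector. Tubulin genes are close in sequence, so reads can be split between them in a way these files do not show. Both groups are read against the same WT library.

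Actc1, which encodes the cardiac alpha actin of thin filaments, was at 5211 CPM in WT, 12753 and 13470 CPM with oridonin and 14162 and 13073 CPM with vector. The WT level is below all 4 Tet2 libraries, and the oridonin level was 2.52-fold higher (log2 difference 1.33, SE 0.16, limma adjusted p = 0.539). Myom2, a protein of the M-band that links thick filaments, went the other way, at 1625 CPM in WT, 552 and 752 CPM with oridonin and 615 and 663 CPM with vector (log2 difference -1.34, SE 0.23). Xirp2, an actin-binding protein of the intercalated disc, was at 123 CPM in WT and 188 and 474 CPM with oridonin, a wide spread between the replicates. The list of 28 sarcomere genes as a whole had 15 higher and 13 lower members and a median of 0.03, so these genes did not shift in 1 direction.

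**Figure D2:**
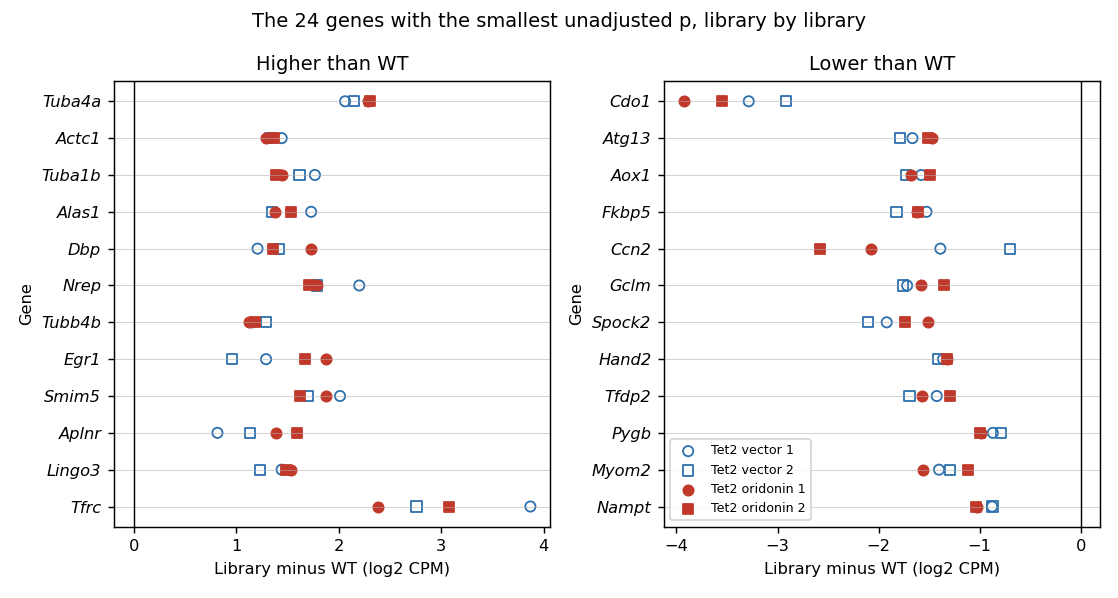
For the 12 higher and the 12 lower genes with the smallest unadjusted p between oridonin and WT, each symbol is 1 Tet2 library minus the WT library (log2 CPM), filled for oridonin and open for vector. In all 24 genes the vector libraries stand on the same side of 0 as the oridonin libraries, and for Ccn2 the oridonin libraries lie further from 0 than the vector libraries.

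Iron uptake and haem synthesis supplied further high genes. Tfrc, the transferrin receptor through which cells take up iron, was at 17.4 CPM in WT, 90.5 and 146 CPM with oridonin and 254 and 118 CPM with vector. The lowest Tet2 library was thus several times the WT level, and oridonin stood 6.61-fold above WT (log2 difference 2.73, SE 0.50, limma adjusted p = 0.546). Alas1, the first and rate-limiting enzyme of haem synthesis, was at 91.6 CPM in WT, 239 and 265 CPM with oridonin and 304 and 234 CPM with vector. Ftl1, the ferritin light chain that stores iron, was lower, at 191 CPM in WT and 127 and 112 CPM with oridonin, although pseudogenes of this gene can share its reads. Slc40a1, the iron exporter ferroportin, was at 35.8 CPM in WT and 18.1 and 17.0 CPM with oridonin, and Hmox1, which breaks haem down, was at 14.2 CPM and then 8.75 and 8.23 CPM. Fth1, the ferritin heavy chain, showed no such distance, with 1895 CPM in WT and 1771 and 1690 CPM with oridonin. The list of 14 iron and haem genes, drawn up after these values were seen, had 7 higher and 7 lower members and a median of -0.03.

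Other genes with small unadjusted p-values on the higher side came from unrelated functions. Aplnr, the receptor for the vasoactive peptide apelin, was at 13.3 CPM in WT, 34.9 and 40.3 CPM with oridonin and 23.5 and 29.2 CPM with vector. Nrep, named for nerve regeneration, was at 6.13 CPM in WT and 21.3 and 20.2 CPM with oridonin, and Smim5, a small membrane protein, at 3.98 CPM and then 14.7 and 12.3 CPM. Lingo3 was at 4.98 CPM in WT and 14.4 and 14.0 CPM with oridonin. In each of these 4 genes the 2 oridonin libraries lay close together and both were over 2-fold above WT, which the choice by smallest p favours.

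Genes that glucocorticoid hormones induce were mostly lower than in WT. Fkbp5, a co-chaperone of the glucocorticoid receptor and a standard target of it, was at 77.2 CPM in WT, 25.1 and 25.2 CPM with oridonin and 26.8 and 21.8 CPM with vector. The 4 Tet2 libraries hardly differed among themselves and the oridonin level was 3.06-fold lower than WT (log2 difference -1.61, SE 0.25, limma adjusted p = 0.539). Zbtb16, a transcription factor that the hormone induces, was at 122 CPM in WT, 24.2 and 45.3 CPM with oridonin and 16.0 and 7.56 CPM with vector, so oridonin stood between the vector and the WT levels. Errfi1, an inhibitor of the epidermal growth factor receptor, was at 48.3 CPM in WT, 19.4 and 14.1 CPM with oridonin and 33.1 and 31.2 CPM with vector, and here oridonin was the lowest group. Map3k6, a stress kinase, was at 35.9 CPM in WT and 14.7 and 13.2 CPM with oridonin, and Ddit4, an inhibitor of mTORC1, at 81.7 CPM and then 35.4 and 22.4 CPM. Cdkn1a, which encodes the cell cycle inhibitor p21, was at 40.9 CPM in WT, 14.2 and 18.2 CPM with oridonin and 14.7 and 16.9 CPM with vector. Tsc22d3, another standard target, showed a smaller distance, with 127 CPM in WT and 83.8 and 65.9 CPM with oridonin.

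Of the 28 tested genes on this list, 22 were lower than WT. Among them 11 had an unadjusted p under 0.05 and 8 were at least 2-fold below WT in both libraries, against 3.53% and 1.12% of all genes. The median log2 difference was -0.71, with -0.53 and -0.81 in the 2 oridonin libraries and -0.52 and -0.51 in the 2 Tet2 vector libraries. Ucp3, a mitochondrial carrier that fasting and fatty acids raise as well, was the 1 member with an unadjusted p under 0.05 on the higher side, at 12.9 CPM in WT, 66.7 and 33.3 CPM with oridonin and 26.7 and 25.0 CPM with vector. A loose form of the receptor's palindrome (G, any base, ACA, any 3 bases, TGT, any base, C) was found on either strand in the promoter window of 4 of 25 of these genes and in 0.475% of all promoters in the RefSeq table (GRCm38.p6, 250 bases before to 50 after the start). Among tested genes the share was 0.456%. Those 4 were Fam107a, Map3k6, Mt1 and Sgk1, of which Sgk1 was higher than WT, at 60.5 CPM in WT and 77.5 and 84.2 CPM with oridonin. Levels of the clock genes Dbp and Bmal1 also stood apart from WT (values given with the clock genes), and their part in these differences was not tested.

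Autophagy genes, which serve the breakdown of proteins and organelles in lysosomes, were lower in nearly every case. Atg13, a subunit of the kinase complex that starts autophagy, was at 160 CPM in WT, 57.6 and 56.3 CPM with oridonin and 50.4 and 46.4 CPM with vector (log2 difference -1.49, SE 0.21, limma adjusted p = 0.539). Sqstm1, the cargo receptor p62, was at 683 CPM in WT, 335 and 309 CPM with oridonin and 253 and 365 CPM with vector. Ctsl, a lysosomal protease, was at 339 CPM in WT and 157 and 149 CPM with oridonin. In each of these 3 genes all 4 Tet2 libraries lay below WT and the oridonin and vector values were interleaved or close. Bnip3, a receptor for mitochondrial removal, was at 302 CPM in WT and 141 and 123 CPM with oridonin, and Fbxo32, the muscle ubiquitin ligase atrogin-1, at 234 CPM and then 117 and 93.9 CPM. The list counts Fbxo32, although a ubiquitin ligase is not itself an autophagy gene. Of the 24 genes on the list 23 were lower than WT, with both oridonin libraries below it for 22 (56.2% and 41.7% of all genes). There were 9 with an unadjusted p under 0.05 and 4 at least 2-fold below WT in both libraries, against 3.53% and 1.12% of all genes, and the median log2 difference was -0.47, with -0.37 in Tet2 vector.

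Targets of NRF2, the transcription factor of the antioxidant response, were lower as well. Gclm, the modifier subunit of the enzyme that begins glutathione synthesis, was at 62.7 CPM in WT, 20.9 and 24.6 CPM with oridonin and 19.1 and 18.5 CPM with vector (log2 difference -1.47, SE 0.24, limma adjusted p = 0.539). Cat, the catalase that removes hydrogen peroxide, was at 364 CPM in WT, 212 and 193 CPM with oridonin and 198 and 237 CPM with vector. For both genes the oridonin and vector libraries were alike in level and below WT. Gpx3, a secreted glutathione peroxidase, differed from that pattern, at 343 CPM in WT, 178 and 210 CPM with oridonin and 305 and 323 CPM with vector, so that only the oridonin libraries stood far below WT (oridonin minus vector -0.70 log2, unadjusted p = 0.0051, adjusted p = 1 in limma). Gstm1, a glutathione transferase, was at 317 CPM in WT and 202 and 177 CPM with oridonin. Of 19 tested NRF2 targets 16 were lower, 6 with an unadjusted p under 0.05 and 2 at least 2-fold in both libraries (56.2%, 3.53% and 1.12% of all genes), and the median log2 difference was -0.51, with -0.44 in Tet2 vector. The core of the antioxidant element, TGACNNNGC on either strand, stood in the promoter window of 7 of 16 of these genes, against 12.4% of all promoters and 17.2% of those of tested genes. Gclm is shown as the member of this list with the smallest p, with its element in capitals in the 160 bases before the start (GRCm38.p6, chr3:122245397-122245556, plus strand, RefSeq). The letters in capitals begin 134 bases before the start and read as the element on the opposite strand.
Gclm: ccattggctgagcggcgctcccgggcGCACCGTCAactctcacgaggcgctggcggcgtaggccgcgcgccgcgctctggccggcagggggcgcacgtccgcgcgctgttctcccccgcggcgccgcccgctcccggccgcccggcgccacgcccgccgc

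Among enzymes of metabolism, Cdo1, which turns cysteine towards taurine, had the largest negative difference among genes averaging 2 CPM or more. It was at 31.7 CPM in WT, 2.05 and 2.68 CPM with oridonin and 3.22 and 4.17 CPM with vector, which put oridonin 13.3-fold below WT (log2 difference -3.74, SE 0.39, limma adjusted p = 0.381). Aox1, an aldehyde oxidase, was at 69.1 CPM in WT and 21.5 and 24.6 CPM with oridonin. Nampt, the rate-limiting enzyme of NAD salvage, was at 360 CPM in WT, 177 and 175 CPM with oridonin and 196 and 197 CPM with vector, and Pygb, a glycogen phosphorylase, at 1335 CPM in WT and 673 and 669 CPM with oridonin. The lower genes with small p also held 2 regulators of transcription: Hand2, a cardiac factor, at 72.8 CPM in WT and 29.1 and 29.0 CPM with oridonin, and Tfdp2, a partner of E2F factors, at 198 CPM and then 66.4 and 80.6 CPM. Spock2, a matrix proteoglycan, was at 41.2 CPM in WT and 14.5 and 12.4 CPM with oridonin. In these 7 genes the oridonin replicates lay closer to each other than to the WT value, which the choice by smallest p favours.

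For fatty acid oxidation, the main fuel path of the adult heart, the list lay near the background. Of 43 genes 28 were lower, where 56.2% of all genes were, 4 of them and 1 higher member, Ucp3, had an unadjusted p under 0.05, and the median log2 difference was -0.16 against -0.06 over all genes (-0.25 in Tet2 vector). Acacb, which makes the malonyl-CoA that restrains fatty acid import, was at 548 CPM in WT and 270 and 286 CPM with oridonin, and Pnpla2, the lipase that opens triglyceride stores, at 680 CPM and then 383 and 322 CPM. These 2 members act on opposite sides of fat burning, and both stood below WT.

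The 13 protein genes of the mitochondrial genome were all higher than in WT in the mean, 11 of them in both oridonin libraries and 4 with an unadjusted p under 0.05 (31.9% and 2.69% of all genes). Their median log2 difference was 0.42, with 0.43 in Tet2 vector. The gene mt-Nd1, for a subunit of complex I, was at 26448 CPM in WT and 38688 and 35584 CPM with oridonin. Of the nuclear genes of the respiratory chain 32 of 44 were higher, with a median of 0.09 that turns sign under other settings, and 0 members had an unadjusted p under 0.05.

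Heat shock genes held 2 of the 6 largest negative differences among genes averaging 2 CPM or more. Hspa1a, the inducible HSP70 chaperone, was at 8.31 CPM in WT, 0.752 and 1.24 CPM with oridonin and 3.41 and 4.30 CPM with vector. Its near-identical neighbour Hspa1b was at 7.95 CPM in WT, 0.889 and 1.99 CPM with oridonin and 2.90 and 5.15 CPM with vector, and reads cannot be assigned with certainty between this pair. Both genes ranked WT above vector above oridonin with no overlap (Hspa1a, oridonin minus WT -3.06 log2, SE 0.50; oridonin minus vector -1.95 log2, limma unadjusted p = 0.0028, adjusted p = 1). Dnaja1, a co-chaperone of HSP70, was at 92.9 CPM in WT and 40.9 and 60.1 CPM with oridonin, and Dnajb1, another one, at 27.6 CPM and then 15.7 and 15.4 CPM. Of 18 heat shock genes 13 were lower, 4 with an unadjusted p under 0.05 and 2 at least 2-fold in both libraries, against 56.2%, 3.53% and 1.12% of all genes. The median was -0.20, with -0.53 in oridonin replicate 1 and -0.15 in replicate 2. The heat shock element (GAA, TTC and GAA, each parted by any 2 bases, on either strand) stood in the promoter window of 4 of 13 members. It stood in 0.603% of all promoters and 0.608% of those of tested genes. Those 4 were Chordc1, Hspd1, Hspe1 and Hsph1, and the heat shock genes described above were not among them.

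Genes of the unfolded protein response did not share a direction, with 12 of 20 higher than WT. Herpud1, which helps to clear misfolded proteins from the endoplasmic reticulum, was at 370 CPM in WT and 206 and 177 CPM with oridonin, and the sensor Atf6 at 243 CPM and then 101 and 134 CPM. Sdf2l1, a chaperone partner in that compartment, was higher, at 2.83 CPM in WT and 5.40 and 5.97 CPM with oridonin, as was Asns, the asparagine synthetase of the amino acid response, at 1.52 CPM and then 3.01 and 3.29 CPM.

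Interferon-stimulated genes and the machinery of antigen display stayed above WT. Igtp, an immunity-related GTPase that interferon gamma induces, was at 15.3 CPM in WT, 30.3 and 29.0 CPM with oridonin and 45.8 and 55.2 CPM with vector. Oridonin thus stood between WT and vector without overlap (oridonin minus WT 0.95 log2, SE 0.24, limma adjusted p = 0.657; oridonin minus vector -0.76 log2, unadjusted p = 0.0083, adjusted p = 1). Its relative Irgm2, whose annotated span overlaps that of Igtp on the same strand, was at 25.5 CPM in WT, 41.2 and 53.7 CPM with oridonin and 66.0 and 61.9 CPM with vector. Tgtp2, a GTPase with a near-identical copy, was at 3.78 CPM in WT, 8.0 and 12.0 CPM with oridonin and 18.0 and 27.5 CPM with vector, and Gbp4, a guanylate-binding protein, at 11.1 CPM in WT, 16.8 and 29.0 CPM with oridonin and 39.1 and 45.9 CPM with vector. In these 4 genes each oridonin library was above WT and below both vector libraries. Of their listed relatives Irgm1, Tgtp1, Gbp2, Gbp3 and Gbp5 shared that order, while Iigp1, Gbp6, Gbp7 and Gbp9 did not. Gbp6 was at 32.8 CPM in WT, 8.48 and 17.6 CPM with oridonin and 14.1 and 17.0 CPM with vector. Cxcl9, a chemokine that draws T cells, was instead level with vector, at 2.57 CPM in WT, 6.36 and 5.63 CPM with oridonin and 6.44 and 6.98 CPM with vector.

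Of 38 tested interferon-stimulated genes 33 were higher than WT, both oridonin libraries were above it for 28, and 8 higher members and 1 lower had an unadjusted p under 0.05. Over all genes 43.8% were higher, 31.9% were above WT in both libraries, and 2.69% higher and 3.53% lower had such a p. The median log2 difference was 0.51, with 0.82 in Tet2 vector. The interferon element (GAAA, any 2 bases, GAAA, searched on both strands) was in the promoter window of 17 of 29 members with a RefSeq promoter, against 3.44% of all promoters and 3.72% of those of tested genes. The 160 bases before the start are printed for the 3 GTPases, which had the smallest p-values on the list beside Cxcl9, and for B2m from the class I list, with the element in capitals (GRCm38.p6, RefSeq). They lie at chr11:58199396-58199555 (Igtp, plus strand), chr11:58214817-58214976 (Irgm2, plus strand), chr11:49064213-49064372 (Tgtp2, minus strand) and chr2:122147527-122147686 (B2m, plus strand). The element begins 34, 64, 70 and 139 bases before the start, in that order.
Igtp: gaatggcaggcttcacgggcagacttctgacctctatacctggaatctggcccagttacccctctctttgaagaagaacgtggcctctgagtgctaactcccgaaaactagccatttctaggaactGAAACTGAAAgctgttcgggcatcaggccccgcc
Irgm2: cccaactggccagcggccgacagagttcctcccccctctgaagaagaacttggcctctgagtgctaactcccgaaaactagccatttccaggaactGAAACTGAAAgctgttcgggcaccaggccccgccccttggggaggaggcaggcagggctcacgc
Tgtp2: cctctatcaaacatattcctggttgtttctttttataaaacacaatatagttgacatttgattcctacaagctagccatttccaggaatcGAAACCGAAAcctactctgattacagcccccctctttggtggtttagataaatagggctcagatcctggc
B2m: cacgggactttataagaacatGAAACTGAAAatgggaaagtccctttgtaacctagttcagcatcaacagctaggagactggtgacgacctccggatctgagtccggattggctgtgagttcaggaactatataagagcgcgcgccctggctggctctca
The motif is a match of letters and no measure of binding.

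Class I of the major histocompatibility complex, which shows peptides from inside the cell to CD8 T cells, was higher for each of its 15 genes, with both oridonin libraries above WT for 14. The median log2 difference was 0.62, with 0.76 in Tet2 vector, 6 members had an unadjusted p under 0.05 and 1 was at least 2-fold above in both libraries (2.69% and 2.1% of all genes). B2m, the light chain of class I molecules, was at 216 CPM in WT, 351 and 361 CPM with oridonin and 450 and 425 CPM with vector. H2-K1, a classical heavy chain, was at 178 CPM in WT, 293 and 255 CPM with oridonin and 329 and 277 CPM with vector, and Tap1, the peptide transporter, at 9.96 CPM and then 23 and 17.5 CPM with oridonin. H2-Q6 was at 25.2 CPM in WT and 48.1 and 39.9 CPM with oridonin, with reads that close H2-Q relatives can share. The element named above was in the promoter of 3 of 13 class I genes.

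Class II, which professional antigen-presenting cells use to show peptides to CD4 T cells, had another order of groups in some of its genes. Cd74, the invariant chain, was at 84.3 CPM in WT, 177 and 135 CPM with oridonin and 73.0 and 116 CPM with vector. H2-Aa, an alpha chain, was at 41.0 CPM in WT, 82.0 and 61.8 CPM with oridonin and 36.8 and 54.5 CPM with vector, and H2-Ab1, a beta chain, at 34.5 CPM, 84.9 and 51.7 CPM, and 27.7 and 50.8 CPM. In these 3 genes the oridonin libraries were the highest, and WT lay within the vector range. H2-DMa, which helps to load peptides, was also highest with oridonin, at 3.06 CPM in WT, 7.18 and 4.80 CPM with oridonin and 3.60 and 3.98 CPM with vector, but with WT below both vector libraries. H2-DMb1, its partner, did not share the order, at 3.55 CPM in WT, 5.74 and 3.84 CPM with oridonin and 3.99 and 6.13 CPM with vector. Against WT, 6 of 7 class II genes were higher, 2 with an unadjusted p under 0.05 (43.8% and 2.69% of all genes), with a median of 0.80 against 0.12 in Tet2 vector. The oridonin minus vector difference of Cd74 was 0.75 log2 (limma, unadjusted p = 0.032, adjusted p = 1).

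Markers of macrophages and monocytes were higher than WT for 7 of 9 genes (43.8% of all genes were), with a median log2 difference of 0.48 and 0.77 in Tet2 vector. Ccr2, the chemokine receptor of recruited monocytes, was at 1.53 CPM in WT, 5.47 and 7.68 CPM with oridonin and 4.25 and 4.50 CPM with vector (log2 difference from WT 2.06, SE 0.39, limma adjusted p = 0.561). Aif1, a cytoskeletal protein of macrophages, was at 0.582 CPM in WT, from 9 counts, and 2.32 and 2.54 CPM with oridonin. C1qb, a complement subunit that resident macrophages make, was at 32.9 CPM in WT, 53.5 and 45.5 CPM with oridonin and 61.9 and 51.6 CPM with vector. The 2 lower members were Csf1r and Lyz2. Csf1r was at 46.7 CPM in WT and 38.8 and 33.2 CPM with oridonin, and Lyz2 at 179 CPM and then 171 and 173 CPM. The summed level of the list, of which Lyz2 was the largest part, differed less than its median. It was 345 CPM in WT, 384 and 380 CPM with oridonin and 640 and 420 CPM with vector. Neutrophil markers summed to 3.45 CPM in WT and 6.43 and 7.62 CPM with oridonin. Each of the 4 that were tested was under 1 CPM in WT and passed the filter only through Tet2 libraries, so their direction is not read. The part of such cells in the class I, class II and interferon values was not tested. Among complement genes 8 of 14 were higher and 0 had an unadjusted p under 0.05.

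**Figure D3:**
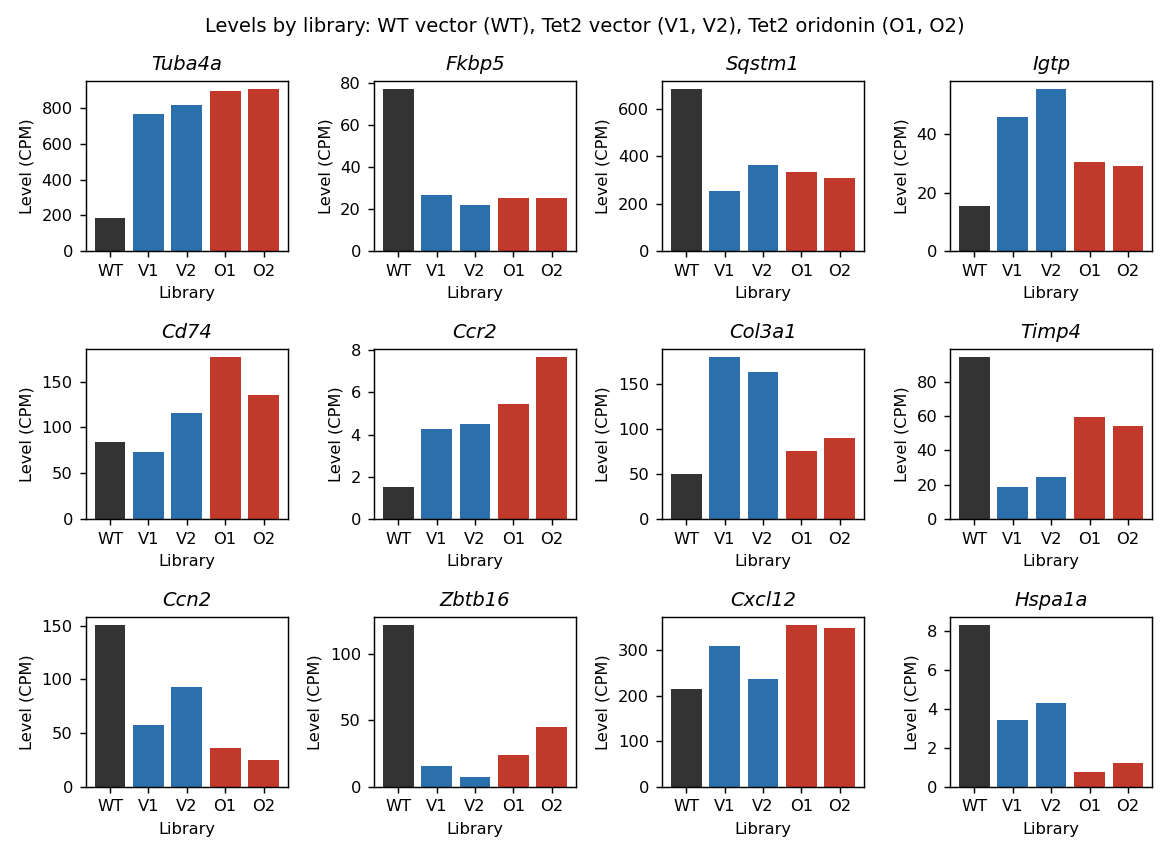
Bars give the level (CPM, each axis from 0) of 12 genes in each library: WT vector (WT), Tet2 vector (V1, V2) and Tet2 oridonin (O1, O2). Tuba4a, Fkbp5 and Sqstm1 stand at like levels in both Tet2 groups, Igtp, Col3a1, Timp4 and Zbtb16 stand between vector and WT with oridonin, and Ccn2 and Hspa1a are lowest with oridonin.

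Some chemokines of the secretory programme named in the series title stood above WT with oridonin. Ccl7, a monocyte attractant (chromosome 11, 82045712 to 82047525, plus strand), had 0 counts in WT, 48 and 74 with oridonin and 42 and 8 with vector. It was tested only because of those oridonin counts, so no ratio is read. Its neighbours in the same cluster were also higher than WT, with Ccl2 at 0.616 CPM in WT, 1.71 and 3.43 CPM with oridonin and 1.42 and 2.54 CPM with vector, and Ccl8 at 1.65 CPM in WT, 6.43 and 7.27 CPM with oridonin and 17.8 and 6.0 CPM with vector. Cxcl12, a chemokine that stromal cells make, was at 216 CPM in WT, 356 and 349 CPM with oridonin and 310 and 238 CPM with vector. Both oridonin libraries were above both vector libraries for Cxcl12. Mmp2, a gelatinase, was lower, at 72.0 CPM in WT, 49.0 and 43.8 CPM with oridonin and 68.4 and 95.1 CPM with vector. Those 4 chemokines were the members with an unadjusted p under 0.05, but that of Ccl7 is not read, for the reason given. Over all genes 2.69% were higher with such a p. Of 30 tested members 22 were higher than WT (43.8% of all genes), and the median was 0.28 log2 (0.35 in Tet2 vector). But 6 of the 30 were under 1 CPM in WT, and 3 of these (Ccl7, Mmp12 and Mmp9) passed the filter only through the oridonin libraries. The count and median include these 3, which were tested because of their oridonin levels, so neither is read as a direction. The list is broad, and 16 of its 46 genes in the table, Il6 and Il1b among them, did not pass the filter on low values.

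Matrix genes differed in level between the oridonin and the vector libraries, and some stood near WT with oridonin. Col3a1, a fibrillar collagen, was at 50.4 CPM in WT, 75.2 and 89.8 CPM with oridonin and 180 and 163 CPM with vector, and Col1a1, the main one, at 38.3 CPM in WT, 51.8 and 57.9 CPM with oridonin and 99.3 and 102 CPM with vector. Both collagens thus stayed above WT with oridonin, 1.63-fold and 1.43-fold, at levels well below vector (oridonin minus vector -1.06 and -0.87 log2, limma adjusted p = 0.864 and 1). Not every fibrillar collagen did. Col1a2 was at 86.2 CPM in WT and 78.1 and 76.8 CPM with oridonin, and Col5a1 at 26.7 CPM and then 23.45 and 26.48 CPM. For Col5a2 the oridonin libraries, at 15.8 and 19.9 CPM, lay on either side of WT at 19.3 CPM. Postn, a matricellular protein of activated fibroblasts, was at 35.8 CPM in WT, 30.6 and 29.3 CPM with oridonin and 87.0 and 141 CPM with vector. Fmod, a collagen-binding proteoglycan, was at 0.516 CPM in WT, 0.205 and 0.617 CPM with oridonin and 12.6 and 11 CPM with vector, and the sign of its difference from WT turned when oridonin replicate 1 was left out (0.25 log2). For Postn and Fmod the oridonin libraries lay near WT and far from vector. Timp4, an inhibitor of matrix proteases in the heart, showed the mirror order, at 94.5 CPM in WT, 59.7 and 54.3 CPM with oridonin and 18.9 and 24.3 CPM with vector.

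Other matrix genes stood below WT with oridonin. Ccn2, the connective tissue growth factor (chromosome 10, 24595442 to 24598683, plus strand), was at 151 CPM in WT, 35.7 and 25.2 CPM with oridonin and 57.5 and 92.6 CPM with vector. This put oridonin 5.02-fold below WT (log2 difference -2.33, SE 0.36, limma adjusted p = 0.539) and below both vector libraries (-1.28 log2, unadjusted p = 0.0048, adjusted p = 1). Thbs2, a thrombospondin, was at 84.6 CPM in WT, 41.0 and 39.1 CPM with oridonin and 42.5 and 48.5 CPM with vector, and Fbln2, a fibulin, at 191 CPM in WT and 93.2 and 85.4 CPM with oridonin. Col15a1 was an exception on the higher side, at 23.4 CPM in WT, 49.1 and 50.2 CPM with oridonin and 77.0 and 58.3 CPM with vector. Of 48 tested matrix genes 34 were lower than WT and 14 higher, 6 and 5 of them with an unadjusted p under 0.05 (3.53% and 2.69% of all genes), and the median was -0.18 log2 where Tet2 vector had 0.67. Basement membrane genes were lower for 12 of 16 (56.2% of all genes), with a median of -0.28, among them Lama5, a laminin chain, at 192 CPM in WT and 101 and 105 CPM with oridonin.

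Fibroblast markers were mostly lower than WT with oridonin. Col1a1, Dcn, Lum and Mfap5 are also on the matrix list, so the lists are not separate readings. Of 8 markers 7 were lower than WT with oridonin (median -0.33 log2), where 56.2% of all genes were lower. In Tet2 vector 6 were higher (median 0.42). The 1 marker higher with oridonin was Col1a1, at 38.3 CPM in WT and 51.8 and 57.9 CPM with oridonin. The summed level was 2795 CPM in WT, 1850 and 1704 CPM with oridonin and 2814 and 2982 CPM with vector. Most of that sum came from Gsn in each library. Gsn, the actin-severing gelsolin that fibroblasts express highly, was at 1944 CPM in WT, 1178 and 1005 CPM with oridonin and 1682 and 1691 CPM with vector. Pdgfra, the growth factor receptor that marks fibroblasts, was at 63.5 CPM in WT, 30.4 and 31.6 CPM with oridonin and 61.0 and 42.7 CPM with vector, and Dcn, the proteoglycan decorin, at 608 CPM, 472 and 482 CPM, and 758 and 901 CPM. The part of these markers in the matrix values was not tested.

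Cell division genes were at low levels, and 9 of the 20 listed did not pass the filter. Of the 11 that did, 4 were under 1 CPM in WT and 3 of these (Aurka, Ccna2 and Top2a) passed only through the oridonin libraries, so no count or median over the list is read from them. Mcm2, a helicase subunit of DNA replication, was at 3.72 CPM in WT, 7.18 and 8.44 CPM with oridonin and 7.98 and 7.17 CPM with vector. Top2a, a topoisomerase of dividing cells, had 2 counts in WT and 14 and 34 with oridonin. It was tested only because of those oridonin counts, so no ratio is read. Mki67, the proliferation antigen, had 9 counts in WT and 16 and 50 with oridonin, so that its replicates differ widely. Cenpf, a kinetochore protein, was at 1.25 CPM in WT, 14.7 and 12.9 CPM with oridonin, and 70.2 and 5.54 CPM with vector.

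Several of the largest ratios belonged to genes of nerve or conduction tissue at low counts. Cntn2, a cell adhesion protein of neurons and the conduction system, had 4 counts in WT and 116 and 80 with oridonin, with 13.2 and 2.35 CPM in the vector libraries. Dbh, which turns dopamine into noradrenaline, had 1 count in WT and 44 and 22 with oridonin, a ratio of 33.9 (95% exact counting interval 5.88 to 1359), and Drd2, a dopamine receptor, 2 counts and then 61 and 18, a ratio of 20.3 (5.43 to 171). These intervals cover counting error only, with the 2 oridonin libraries pooled. They rest on the approximate WT count, since the WT column may itself be a blend. Nor do they allow for the choice of Dbh and Drd2 by the size of their difference. All 4 Tet2 libraries were above WT for these 3 genes. Scn10a, a sodium channel, had 5 counts in WT and 45 and 25 with oridonin. Over a list of 11 tested conduction genes, chosen after these values were seen, no direction is read, since 3 of them were under 1 CPM in WT and passed the filter only through Tet2 libraries. The 6 tested nerve and glia markers had 3 higher and 3 lower, at a summed 8.76 CPM in WT and 12.4 and 12.4 CPM with oridonin. How much nodal tissue or nerve each heart piece held was not tested. Hp, the haemoglobin-binding haptoglobin, was a further large ratio at low level, with 10 counts in WT and 102 and 85 with oridonin. On the lower side Igsf23 had 104 counts in WT and 7 and 19 with oridonin, and Dusp4, a phosphatase of MAP kinases, 103 and then 10 and 14.

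Clock genes and immediate early genes were mixed. Dbp, an output factor of the circadian clock, was at 37.0 CPM in WT, 123 and 95.0 CPM with oridonin and 85.5 and 98.9 CPM with vector (log2 difference 1.54, SE 0.25, limma adjusted p = 0.539). Bmal1, the activator at the core of the clock, was lower, at 7.55 CPM in WT, 2.53 and 1.51 CPM with oridonin and 1.29 and 3.72 CPM with vector. These 2 genes peak at opposite phases of the day, and in both all 4 Tet2 libraries stood on 1 side of WT. Over 20 clock genes 7 were higher and 13 lower, near the share over all genes, with 2 in each direction at unadjusted p under 0.05. The E-box CACGTG was in the promoter window of 5 of 16 of them, against 7.15% of all promoters and 11.7% of those of tested genes. Those 5 were Bhlhe41, Ciart, Cry1, Per1 and Tef. Egr1, an immediate early transcription factor, was at 5.80 CPM in WT, 21.3 and 18.5 CPM with oridonin and 14.2 and 11.3 CPM with vector, while Nr4a1, an orphan receptor of the same class of early genes, was at 30.8 CPM in WT, 8.82 and 7.62 CPM with oridonin and 8.30 and 20.3 CPM with vector. The 21 early genes had a median of -0.23, with 7 higher and 14 lower, where 56.2% of all genes were lower.

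**Figure D4:**
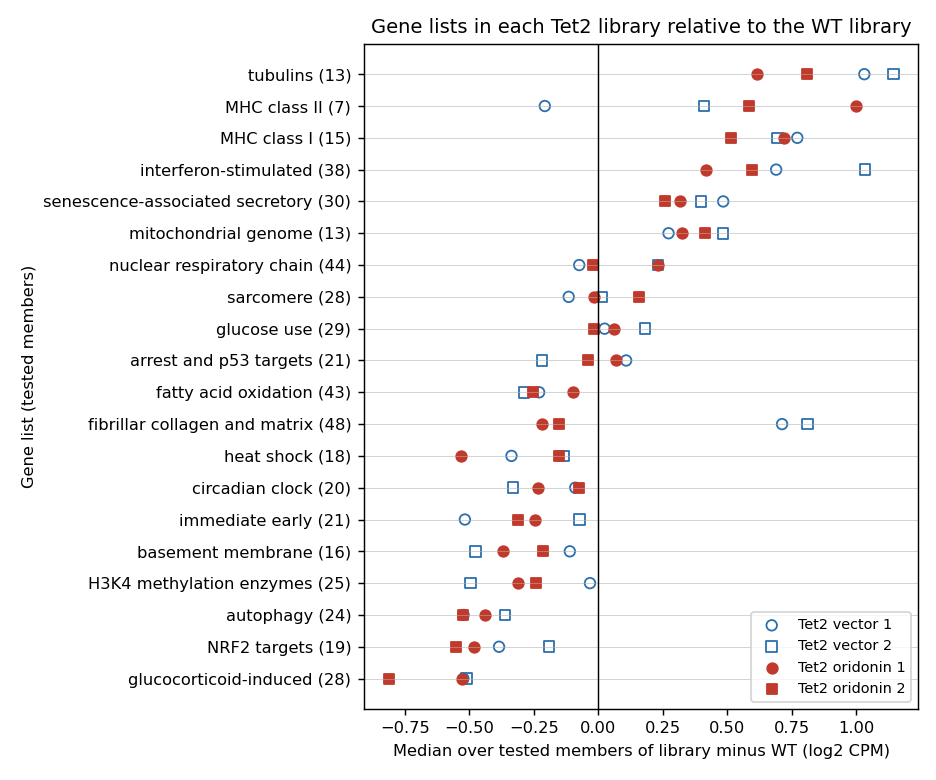
Each symbol is the median over the tested members of a list of 1 Tet2 library minus WT (log2 CPM), filled for oridonin and open for vector, with the number of tested members in parentheses. Tubulin, class I and interferon-stimulated genes lie right of 0 and autophagy, NRF2 and glucocorticoid-induced genes left of 0 in all 4 libraries, while fibrillar collagen and matrix genes lie left of 0 with oridonin and right of 0 with vector.

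For the remaining lists no direction can be given, because the median over members changed sign under another scaling, block or left-out library. They include arrest and p53 targets (9 of 21 higher, 0 higher and 2 lower with an unadjusted p under 0.05), calcium handling (6 of 14 higher), potassium and sodium channels (9 of 21 higher), cardiac stress (5 of 13 higher) and glucose use (16 of 29 higher). Single members with small p-values in them were Sesn1, a p53-induced regulator of mTORC1, at 225 CPM in WT and 101 and 117 CPM with oridonin, and Cacna1c, the pore of the L-type calcium channel, at 430 CPM in WT and 214 and 228 CPM with oridonin. Casq2, the calcium buffer of the sarcoplasmic reticulum, was higher, at 709 CPM in WT and 1026 and 1198 CPM with oridonin, and Slc2a1, a glucose transporter, lower, at 37.6 CPM and then 19.6 and 18.3 CPM. Endothelial markers had 4 of 8 members higher and a median of 0.12.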

How the data were processed

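Poly-A RNA from mouse hearts was sequenced as 5 NEBNext Ultra libraries, per the labels' protocols. They do not say whether strand was kept, so reads of overlapping or antisense genes may be mixed. The build was mm10 (per the submitters' processing notes), while aligner, counter and annotation were not given in the sources used here. Log2 values were deposited by the authors for 17818 gene symbols, and 0 columns were left without a sample. From the values, these are log2 CPM with 0.5 added to the count, and each Tet2 column is 0.75 of its own value plus 0.25 of the other replicate's. The mix was undone as 1.5 times own minus 0.5 times other, after which 99.9% of genes per Tet2 column gave whole counts (within 0.01). The WT column was used as deposited. Only 33.5% of its genes give whole counts, so it may be a blend of the same kind with a second set of values that is not a column of the table and was not analysed here. WT levels are those of this blend, WT counts are approximate, and folds against WT carry that limit.

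Genes with log2 CPM of at least 0 in 2 or more of 5 columns were kept. Limma 3.58.1 (trend, robust, R 4.3.3) was fitted to all 5 libraries with group as the only term, 2 residual degrees of freedom and adjustment at an FDR of 0.05. The lone WT library has no replicate and is assumed to vary like the Tet2 groups. The script was tested on simulated data. Replicate numbers do not pair samples here. Group comparisons share the WT library and the vector values are therefore given side by side.

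The members and lists were chosen with earlier results of these data known, and no list was tested as a set. Named genes are Tet2, Kdm5c, the 12 higher and 12 lower with the smallest unadjusted p (mean at least 5 CPM), the 6 higher and 6 lower with the largest difference (mean at least 2 CPM), both with the 2 oridonin libraries on the same side of WT, and up to 4 members per list. The iron and conduction lists, and Col1a1, Col3a1, Postn, Fmod, Dcn, Timp4, Zbtb16, Tsc22d3, Ddit4, Ucp3 as a glucocorticoid target, Scn10a, Fth1, Ftl1, Slc40a1, Hmox1, Mmp2, Bnip3, Gbp4, H2-Ab1, H2-DMb1 and Mki67, were named after their values were seen. So were Col1a2, Col5a1, Col5a2, Csf1r, Lyz2, Irgm1, Tgtp1, Iigp1, Gbp2, Gbp3, Gbp5, Gbp6, Gbp7 and Gbp9. A few genes that the rule selects are not reported here. Gene positions are those of GENCODE M21. Promoter sequences come from RefSeq (GRCm38.p6), which held 9862 of the tested genes.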

Additional observations from a re-analysis of the deposited data

How the results depend on the processing

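The count of genes past the adjusted threshold was 0 in the fit reported and stayed 0 with voom, with either other scaling, with either other filter and without the robust option. It was 996 on the values as deposited, whose mix shrinks the distance between replicates, 1 with only the oridonin and WT libraries, and 0 to 24 when 1 library was left out (Tet2 vector replicate 1 left out gave 1 and replicate 2 gave 0, oridonin replicate 1 gave 10 and replicate 2 gave 24). The genes at unadjusted p under 0.05 numbered 791, against 3963 on the values as deposited, 1407 with only the oridonin and WT libraries and 502 to 1415 with 1 library left out (1415 and 1391 without Tet2 vector replicate 1 or 2, 502 and 582 without oridonin replicate 1 or 2). The 410 genes at least 2-fold from WT became 1906 with no filter (964 higher, 942 lower), 172 at log2 CPM of at least 2 (92 higher, 80 lower), and 925 to 956 when 1 oridonin library was left out, since 1 library then had to pass.

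With the title number as a replicate block, 6 genes passed the adjusted threshold and 387 had an unadjusted p under 0.05. WT and oridonin share only number 1, same-numbered deviations had a correlation of -0.30, and the numbers were not taken as pairs. The crossed pairing, added after the data were seen, gave 184 and 1813.

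Of 147 genes checked singly 2 turned sign in a setting: Tet2 (-0.72 to 0.20 with 1 library left out, 0.29 with the crossed block) and Fmod (-1.20 to 0.25 with 1 library left out). None of the others did under the settings run. The median of 15 of 41 lists turned sign. Only 1 WT library limits every comparison.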
